A study of Homo sapiens with 22 samples.

Results

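Cold bins are 100 kb stretches of the autosomes in which piggyBac transposons were hardly ever found. They were selected on the measured insertions themselves, as bins of chromosomes 1 to 22 (hg38) that contain at least 300 TTAA sites and fewer than 0.2 insertions per TTAA site over 20 Calling Cards libraries. Of 28760 bins, 25799 had enough TTAA sites to be eligible and 692 of these were cold, which is 2.68% of the eligible bins and 69.2 Mb of sequence. Because the rule uses the insertions, the low density of these bins is a description and was not tested.

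All libraries come from K562, an established human leukaemia cell line with erythroid features. Cells were electroporated with a donor plasmid carrying a barcoded, self-reporting piggyBac transposon with a puromycin resistance gene, together with a helper plasmid that supplies the transposase, hyPBase (WTHYPB in the labels) in 10 libraries and hyPBase-centrip (WTHYPBcentrip) in the other 10. Both groups share the cell line, the donor, 11 days of puromycin at 2 ug/ml and the readout from RNA. They also share the pooling of 3 transfections per dish and a stated total of 30 transfections. Nothing in the labels says that libraries are independent cultures beyond their replicate numbers, so p-values measure the spread between these libraries, and what distinguishes hyPBase-centrip is not stated in the sources used here. Another 2 libraries carry labels that contradict each other on the helper used, and they entered no comparison. The selection rule left them out for the word ClarkMut in their names, and which helper they hold is not known here. The 20 libraries held between 1509672 and 3596762 insertions each. As a check of the label, the 7 autosomal genes of a K562 marker list had a median of 18.3 insertions per TTAA site within 10 kb of the gene, from 7.44 for EPOR to 55.4 for HBG1, against medians of 3.99 for 4 T cell genes, 2.40 for 4 B cell genes, 4.98 for 2 liver genes, 5.59 for 2 epithelial genes, of which EPCAM at 9.77 was above EPOR, and 1.44 for 2 neuronal genes.

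The piggyBac transposase cuts and pastes its transposon almost exclusively into the tetranucleotide TTAA, so the number of TTAA sites sets how many insertions a region can take. In living cells insertions collect in open, transcribed chromatin, and they are rare in compact chromatin. Here an insertion is seen through RNA that the inserted transposon makes, in cells that survived puromycin, so a region without DNA, without insertions or with a silent transposon cannot be told apart from these files. Copy number, chromatin state and reads without a unique position were not measured in them.

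The 692 bins formed 204 runs of adjacent cold bins, 107 of them a single bin. Runs were put in 3 classes, with their edges first moved in 10 kb steps. Repeat runs are those in which at least 50% of the TTAA sites begin no 40-mer that is unique in the genome, in either direction. Near-empty runs have fewer than 0.02 insertions per TTAA site and at least 10 times that run's density in a 50 kb flank on either side. Flanks begin at the first 10 kb step that reaches 0.2 insertions per site, so near centromeres they can lie megabases away, beyond other cold runs. As 0.2 is 10 times 0.02, this starting point largely fixes the flank condition for runs under 0.02. The split from low-density runs therefore rests mainly on the 0.02 limit and is no separate measure of sharp edges. All other runs are low-density runs. By this division 9 runs (103 bins) were near-empty, 76 runs (160 bins) were low-density and 119 runs (429 bins) were repeat runs. A run was called near a centromere when it lay within 5 Mb of a bin with at least 10 copies of the CENP-B box, the protein-binding sequence of centromeric alpha satellite. That division was made after the values had been seen. It follows the box sequence alone, so a run with this label need not adjoin the centromere. On chromosome 2 it covers the runs with PLGLB2 (chr2:87748087-87759476) and with POTEI (chr2:130459455-130509707), which lie far apart.

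The sequences below show what the classes look like at the level of single insertion sites (hg38, plus strand, 5′ to 3′). The first 4 span the borders of the near-empty runs on chromosome 9, where the capitals mark the TTAA sites on either side of the border. The left border of the longer run lies in an intron of FOCAD at chr9:20750919-20751059, the right border at chr9:26590136-26590275 where no gene is annotated, the left border of the shorter run in an intron of LINGO2 at chr9:28549937-28550006, and its right border at chr9:31624635-31624691 where no gene is annotated.
Longer run, left border: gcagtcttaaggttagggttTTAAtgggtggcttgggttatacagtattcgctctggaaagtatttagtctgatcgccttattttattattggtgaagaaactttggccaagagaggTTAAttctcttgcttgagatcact
Longer run, right border: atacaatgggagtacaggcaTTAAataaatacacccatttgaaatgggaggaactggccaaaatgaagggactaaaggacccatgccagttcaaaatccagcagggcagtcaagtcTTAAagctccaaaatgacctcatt
Shorter run, left border: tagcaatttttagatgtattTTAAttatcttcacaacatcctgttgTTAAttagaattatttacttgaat
Shorter run, right border: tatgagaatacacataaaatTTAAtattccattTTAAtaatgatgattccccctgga

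The next 2 are the nearest TTAA sites with an insertion on either side of an empty stretch on chromosome 10, in introns of KCNIP2 (chr10:101842854-101842917) and ARMH3 (chr10:102037049-102037112), with the TTAA in capitals.
Left of the stretch: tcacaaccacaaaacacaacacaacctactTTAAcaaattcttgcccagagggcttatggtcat
Right of the stretch: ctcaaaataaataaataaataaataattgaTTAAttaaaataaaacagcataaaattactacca

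For the repeat runs, a stretch of the longest one (chr3:91553659-91553829, no annotated gene) are shown with the TTAA and the CENP-B box letters in capitals, followed by a 40-mer from TBC1D3G (chr17:36329805-36329844), a member of a recently duplicated gene family. The 40 bases that start at the TTAA of the chromosome 3 unit stand 436 times on the autosomes, counting both strands. The TBC1D3G 40-mer stands there 14 times, with copies in TBC1D3D, TBC1D3E and TBC1D3K as well. A 40-base read that starts at either TTAA cannot be given a single position.
Chromosome 3 repeat: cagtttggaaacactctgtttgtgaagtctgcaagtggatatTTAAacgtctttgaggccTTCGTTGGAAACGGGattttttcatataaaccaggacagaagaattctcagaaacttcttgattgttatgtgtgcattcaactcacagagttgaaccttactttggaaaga
TBC1D3G: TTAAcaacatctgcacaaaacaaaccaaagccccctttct

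For contrast, the site with the most insertions in the longest low-density run away from the centromeres lies in an intron of ZNF583 (chr19:56400849-56400912) and received 5 insertions.
ZNF583: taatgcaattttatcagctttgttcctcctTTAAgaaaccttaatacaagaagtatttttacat

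The cold bins held 22255 insertions at 401812 TTAA sites. That is 0.0454% of the insertions and 2.28% of the sites of eligible bins. Their density was 0.0554 insertions per TTAA site, against 2.78 over all eligible bins. No insertion was found in 244 bins in any of the 20 libraries. In all, 366 bins lay under 0.02, 159 between 0.02 and 0.1, and 167 between 0.1 and 0.2. The threshold of 0.2 falls on a continuous slope: the nearest bins inside it had 0.198 (chr8:46800001-46900000, chr11:49700001-49800000 and chr14:45400001-45500000) and the nearest outside it 0.2003 (chr18:14500001-14600000), 0.2004 (chr19:52300001-52400000) and 0.2009 (chr8:12300001-12400000). There were 38 bins from 0.18 to 0.2 and 49 from 0.2 to 0.22.

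**Figure D1:**
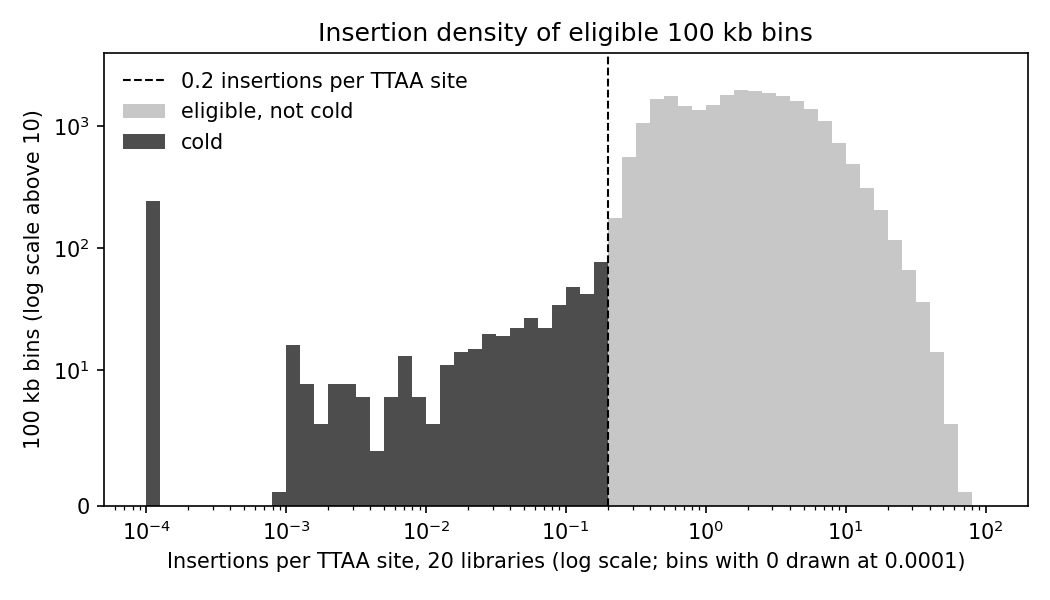
Number of eligible 100 kb bins (vertical axis, log scale above 10) by insertions per TTAA site summed over 20 libraries (horizontal axis, log scale, bins with 0 insertions drawn at 0.0001). The 692 cold bins (dark) lie left of the dashed threshold of 0.2, and 244 of them held no insertion.

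The cold bins were spread unevenly over the chromosomes. Chromosome 9 had 174 cold bins, 15.5% of its eligible bins, of which 89 were near-empty and 78 were in repeat runs. Chromosome 19 had 54, 16.2% of its eligible bins, and 29 of them were low-density. Chromosome 7 had 69 (4.58%), of which 35 were low-density and 31 were in repeat runs. Chromosomes 21 (32 bins, 8.94%), 16 (49 bins, 6.85%) and 22 (15 bins, 5.36%) were also above the share of 2.68%, almost entirely through repeat runs. Chromosome 15 was above it too (29 bins, 3.62%), with 25 bins in repeat runs. At the other end, chromosome 20 had no cold bin among 568, and chromosome 13 had 3 among 955.

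**Figure D2:**
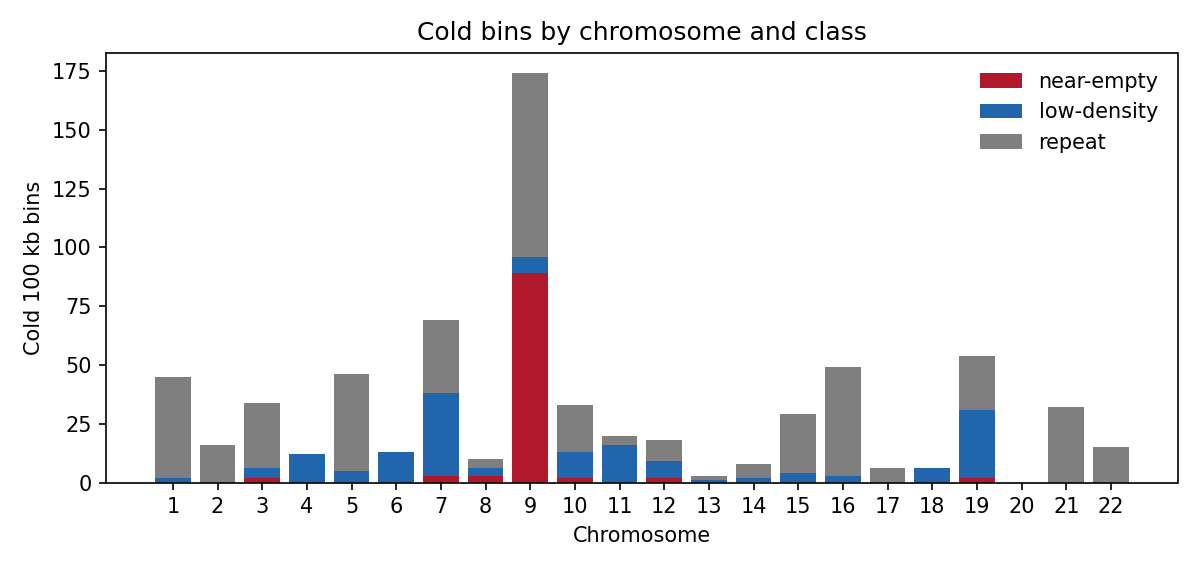
Number of cold 100 kb bins on each autosome, stacked by class of run. Chromosome 9 (174 bins) has 89 near-empty bins, chromosome 19 (54 bins) has 29 low-density bins, and chromosome 20 has none.

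Of the 692 cold bins, 474 (68.5%) lay within 5 Mb of bins rich in CENP-B boxes, where 8.60% of all eligible bins lie. The box letters searched were TTCGNNNNANNCGGG on both strands. At least 10 copies were present in 26.2% of cold bins and in 0.725% of eligible bins. Cold bins had few genes: 76.4% overlapped no protein-coding gene, against 35.9% of eligible bins. Away from centromeres the share was 35.4% in repeat bins and 47.8% in low-density bins, and near centromeres 88.8% and 80.7%. In near-empty bins it was 75.7%. GC content was alike, with a median of 38.95% in cold bins and 39.6% in eligible bins. The number of TTAA sites per bin, which the rule bounds from below, had a median of 589 in cold bins and 699 in eligible bins.

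The classes differed in sequence features that the division between near-empty and low-density runs did not use. Near-empty bins had a median GC content of 36.1% and a median of 839 TTAA sites, and 89 of the 103 belong to the 2 runs on chromosome 9. The 13 near-empty bins near centromeres had medians of 37.2% and 565 sites, with 9.80% of sites not unique. Over all 103 bins, 2.54% of TTAA sites lacked a unique 40-mer, against 3.90% over eligible bins, although in the run chr7:61700001-62000000 the share was 29.2%. The read length is not known, so the 40-mer stands in for how well reads can be placed. Low-density bins were intermediate, with 14.5% of sites not unique. Repeat bins had 88.6% of sites not unique, a median of 432 TTAA sites per bin and, in 82 of 429 bins, unsequenced bases in the reference.

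**Figure D3:**
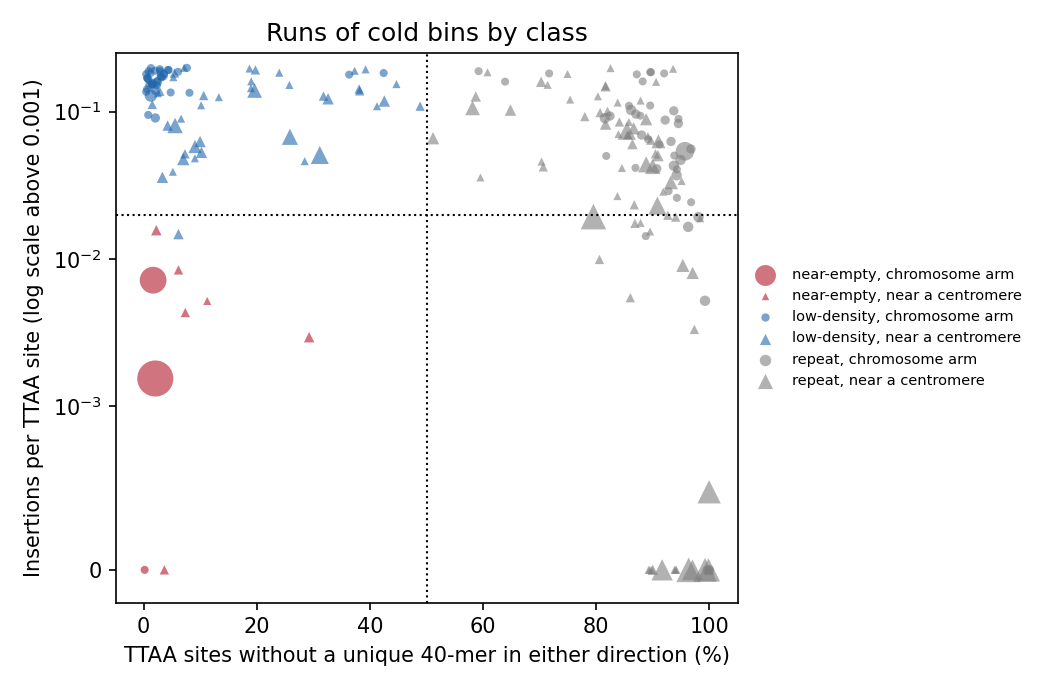
Each point is one of the 204 runs, with the percent of TTAA sites that lack a unique 40-mer on the horizontal axis and insertions per TTAA site on the vertical axis (log scale above 0.001). Point size grows with the number of bins, triangles lie within 5 Mb of CENP-B-rich bins, and dotted lines mark the class limits of 50% and 0.02. The 2 large near-empty runs of chromosome 9 sit at the lower left and the repeat runs on the right. Both axes were used to set the classes, so this separation follows in large part from the class limits.

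The largest near-empty run covers chr9:20800001-26600000 on the short arm of chromosome 9, 58 bins with 47981 TTAA sites and 74 insertions. A library contributed between 0 and 11 of these, with a median of 3. The run contains the type I interferon cluster, whose genes encode secreted antiviral proteins, and the cell cycle inhibitor genes CDKN2A and CDKN2B with their neighbour MTAP, an enzyme of methionine salvage. Borders were then placed at the single site where the density changes most. Between chr9:20751036-26590159 there were 40 insertions at 48291 sites, 0.000828 per site (95% Poisson interval 0.000592 to 0.00113, for counting error only). Of the 25 protein-coding genes that lie wholly between the borders, 24 had no insertion, among them 16 interferon genes and MTAP with 921 TTAA sites, for which a count of 0 allows up to 0.00326 insertions per site. The interferon genes have only 1 to 12 TTAA sites each. A count of 0 in them allows up to 0.25 insertions per site in IFNE and up to 3 in IFNA6, IFNA7 and IFNA13. CDKN2A had 1 insertion at 220 sites. ELAVL2, a neuronal RNA-binding protein gene, had none at 1260 sites.

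The second run covers chr9:28500001-31600000, 31 bins with 27759 TTAA sites and 199 insertions, with 5 to 23 per library and a median of 9. Most of these insertions lay in its first bin, on the outer side of the border. Between the borders, chr9:28549983-31624658, 31 insertions remained at 27500 sites, or 0.00113 per site (0.000766 to 0.00160), and a library had 0 to 9 of them. The only protein-coding gene there is part of LINGO2, which encodes a leucine-rich repeat membrane protein. In the whole LINGO2 gene, 1806 insertions were found at 11254 sites, since much of it lies outside the border.

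The borders were placed by the same insertions, inside runs chosen for low density, so a step at each of them is in large part fixed by the search and its size is a description. At the left border of the longer run, the first 10 kb outside had 112 insertions at 105 sites and the first 10 kb inside had 0 at 74. At its right border the counts were 35 at 64 sites outside and 0 at 69 inside. For the shorter run they were 38 at 100 and 1 at 67 on the left, and 36 at 102 and 0 at 71 on the right. The 2 TTAA sites that bracket a border lay 97, 96, 26 and 13 bp apart, in the order printed above. These intervals give the resolution of the change-point search and not a measured junction.

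**Figure D4:**
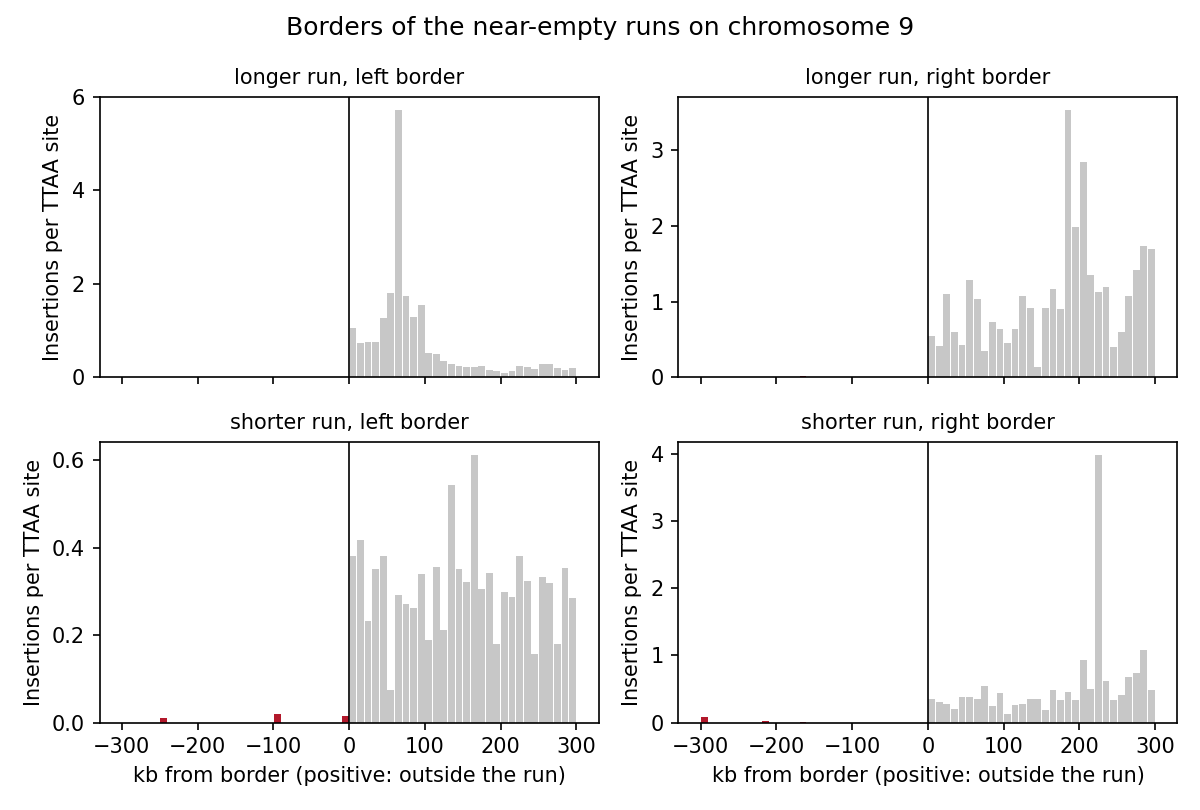
Insertions per TTAA site in 10 kb windows (20 libraries summed) against distance from the 4 borders of the near-empty runs on chromosome 9, with positive distances outside the run (grey) and negative distances inside (red). Inside the longer run the 50 kb next to each border held no insertion, while outside it densities were 0.547 and 1.07 in the first 10 kb. The vertical scale differs between panels.

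Between the runs lies a stretch of 1960 kb, chr9:26590160-28549982, with 25277 insertions at 15019 sites. Its density was 1.68 per site, of which MOB3B alone carried 12395 insertions. Its 19 whole bins ranged from 0.285 to 13.7 with a median of 0.712, below the median of eligible bins (1.73) and near their 25% quantile (0.675). It holds IFT74, an intraflagellar transport gene, at 1.98 insertions per site, TEK, the angiopoietin receptor gene, at 0.882 and MOB3B at 9.51. IFNK, the one interferon gene of the list outside the near-empty run, had 201 insertions at 17 sites.

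The third near-empty run away from a centromere is the single bin chr10:101900001-102000000, with no insertion at 617 TTAA sites in any library and densities of 5.49 and 6.11 in the 50 kb flanks. The same border search gave chr10:101831679-102053338 here, with 180 insertions at 1203 sites, or 0.150 per site, so it reached past the empty part. A stretch picked for having no insertion extends beyond the bin, over chr10:101844267-102036687, where 1108 sites in 192 kb had no insertion. The 100 sites before it averaged 10.25 insertions and the 100 sites after it 8.59. It begins just before ARMH3, which encodes an armadillo-type helical protein, and ends inside it. The whole gene had 196 insertions at 1181 sites, all outside the stretch. Of the 1108 sites, 1084 are unique in both directions.

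Another 6 near-empty runs adjoin centromeres and overlap no protein-coding gene. They are chr3:90500001-90700000, chr7:61700001-62000000, chr8:43600001-43900000, chr10:41700001-41800000, chr12:37800001-38000000 and chr19:24200001-24400000. Their densities ran from 0 (0 of 1016 sites on chromosome 12, which allows up to 0.00295 per site) to 0.0157, with 0 to 4 insertions in any one library. Their flanks, which the runs on chromosomes 3, 10 and 19 share with a neighbouring repeat run, ranged from 0.166 to 1.03 insertions per site, with a median of 0.355, against a median of 0.675 for the 3 runs away from centromeres.

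The reads behind the few insertions of the 2 near-empty runs on chromosome 9 were not used by the rule. In the longer chromosome 9 run, 32 of the 40 insertions between the borders were backed by 1 read, and in the shorter run 29 of 31 (93.5%). Between the borders of the other 7 near-empty runs, which span 222 to 3543 kb and so take in much sequence outside runs of 1 to 3 bins, the share with 1 read ran from 31.6% to 65.3%. Over the libraries, 30.4% ± 6.42 (SD, n = 10) of insertions in the other eligible bins of hyPBase libraries and 40.0% ± 6.96 (n = 10) of those of hyPBase-centrip libraries had 1 read. The 40 insertions of the longer run were spread over 34 sites, 30 of which were hit in a single library. In the longer run 38 of the 40, and in the shorter run 27 of the 31, lay at sites whose 40-mer was unique in the direction read, against 48997189 of 49067888 over eligible bins.

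Low-density runs took up 160 bins with 11687 insertions, 0.116 per site. Every one of these bins held at least 1 insertion. The 35 runs away from centromeres had a median density of 0.169 and a median of 0.258 in their 50 kb flanks, and 29 of them are a single bin. Only 4.45% of their TTAA sites were not unique. On chromosome 4, 6 runs with 10 bins lie in chr4:159600001-162700000, with 1445 insertions at 8653 sites, run densities of 0.142 to 0.1797 and a median flank of 0.242.

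The protein-coding genes of low-density runs were in large part zinc finger genes, which encode DNA-binding repressors that arose by tandem duplication. In the low-density runs away from centromeres 30 of 61 protein-coding genes (49.2%) had ZNF symbols, and near centromeres 17 of 23 (73.9%), where 450 of the 15849 protein-coding genes of eligible bins have them. The 61 genes include 13 overlapping PCDHA genes of a single bin. The ZNF genes lay in 9 of the 35 runs away from centromeres and in 7 of the 41 near them, so many of them share a run. Of the 47 genes, 34 are on chromosome 19. Their median density over the gene body was 0.0857 insertions per TTAA site and 42 of 47 were under 0.2. They overlap bins chosen for a low density, so these low values are in large part fixed by the rule. Of the 450 ZNF genes of eligible bins, 48 overlap a cold bin, and the 446 with at least 10 TTAA sites had a median of 1.58. In the 47 genes the median share of TTAA sites with a unique 40-mer was 98.0%, and the lowest 74.5%.

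On chromosome 19, chr19:22100001-23000000 held 448 insertions at 5567 sites over 9 bins, with 13 to 36 per library and a median of 21. It contains ZNF676, ZNF729, ZNF98, ZNF492, ZNF99, ZNF723 and ZNF728. ZNF492 had no insertion at 217 sites and ZNF729 had 3 at 217, while ZNF99 had 21 at 239. The neighbouring run chr19:21900001-22000000 with ZNF208 had 22 insertions at 563 sites. On the long arm, chr19:56400001-56900000 had 358 insertions at 2788 sites, 9 to 33 per library. Its genes include ZNF470 (3 insertions at 141 sites), ZFP28 (6 at 105) and the paternally expressed gene PEG3 (30 at 172). Some of these runs had abrupt edges on one side. The left flank of chr19:37300001-37500000 had 1.64 insertions per site against 0.0905 in the run, and its right flank 0.221.

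Other gene clusters appear among the low-density runs. At chr5:140800001-140900000, in the array of PCDHA genes whose variable first exons encode neuronal protocadherins, 117 insertions were found at 769 sites. The 13 PCDHA genes counted there overlap one another and share these sites. At chr11:54500001-55100000, with the olfactory receptor genes OR4C46, OR4A8 and OR4A5, 202 insertions were found at 3488 sites. At chr12:133100001-133200000, where ZNF140, ZNF891, ZNF10 and ZNF268 lie, there were 97 at 630. The bin chr15:25000001-25100000 had 63 at 462.

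Near centromeres, 41 low-density runs with 114 bins averaged 0.0945 insertions per site, and 92 of the bins (80.7%) had no protein-coding gene. The longest was chr7:62600001-63900000, with 359 insertions at 7072 sites and 5 to 32 per library. Other long ones, beside the chromosome 19 run given above, were chr7:56900001-57900000, with 370 at 5487 and the genes ZNF479 (1 insertion at 141 sites) and ZNF716 (0 at 160), and chr6:60800001-61600000, with 727 at 5225 and no protein-coding gene. The 5 lowest were chr12:34400001-34700000 (24 at 1629, or 0.0147), chr5:45900001-46300000 (88 at 2457), the ZNF208 run on chromosome 19 (0.0391), chr7:58000001-58100000 (17 at 369) and chr10:38900001-39400000 (141 at 2964). The chromosome 12 run was below 0.02 but was not classed as near-empty, because its left flank had too few TTAA sites to be read.

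Repeat runs made up 429 bins with 10244 insertions, 0.0469 per TTAA site. By the 40-mer, 88.6% of the sites could not be told from another, so the count per TTAA site may not measure how often these regions received insertions. Over all autosomes, at TTAA sites unique in a single direction, 756789 insertions were read in that direction and 49478 in the other. The share in the unique direction was 93.9%, and 93.4% to 94.0% in each library. Sites unique in neither direction held 0.0458% to 0.0507% of a library's insertions, and they make up 3.90% of the sites of eligible bins. Whether reads were lost in the repeat runs was not tested. Of the 10244 insertions, 9597 were read in a unique direction. When insertions read in a unique direction were divided by the unique directions, the density was 0.325 per direction in repeat runs, against 0.0758 in low-density runs, 0.00199 in near-empty runs and 1.47 over all eligible bins. In repeat runs of the chromosome arms it was 0.657 and near centromeres 0.265. This measure rests on the 29534 unique directions of the repeat runs. The near-empty value includes edge bins on chromosome 9 that reach outside the borders. Per TTAA site, all near-empty bins had 0.00390 insertions, against 0.000828 and 0.00113 between the borders of the 2 chromosome 9 runs.

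The longest repeat runs adjoin the centromeres. They are chr3:90800001-93600000 (199 insertions at 10280 sites), chr7:58200001-60800000 (0 at 8295), chr5:47200001-49600000 (0 at 8692), chr19:24900001-27200000 (0 at 8377) and chr1:122500001-124800000 (4 at 8387). Between 79.5% and 99.95% of their TTAA sites lacked a unique 40-mer and none overlaps a protein-coding gene. Of 347 repeat bins near centromeres, 170 held at least 10 CENP-B boxes and 182 had no insertion. Away from centromeres 43 repeat runs held 82 bins, 10 of them without insertion. Repeat runs hold recently duplicated families: AMY1A, AMY1B and AMY2A, the amylase genes, on chromosome 1, the PRAMEF and NBPF genes on the same chromosome, GOLGA8 genes on chromosome 15, NPIP genes on chromosome 16 and TBC1D3 genes on chromosome 17.

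Across fixed gene families, 257 of 15849 protein-coding genes in eligible bins (1.62%) overlapped a cold bin. Members of a family lie next to each other and share bins, so the counts below are not independent and were not tested. The share was 94.1% for interferons (16 of 17, all in the near-empty run), 57.1% for the TBC1D3 family (8 of 14), 23.8% for the PRAME family (5 of 21), 21.4% for the NBPF family (3 of 14), 20.6% for protocadherins (13 of 63), 14.3% for the GOLGA family (5 of 35) and 10.7% for zinc finger genes (48 of 450). For olfactory receptors it was 2.90% (12 of 414). No gene of 11 other families overlapped a cold bin: taste receptors (24 genes), defensins (45), keratin-associated proteins (88), keratins (42), UDP glucuronosyltransferases (22), vomeronasal receptors (4), USP17L genes (6), serpins (30), CYP genes (53), histones (83) and HLA genes (19). Median insertions per site, over genes with at least 10 TTAA sites, overlapped between families with and without genes in cold bins. With such genes, medians ran from 0 (interferons, 4 genes) and 0.1 (PRAME, 17) to 1.58 (zinc finger, 446), 1.69 (olfactory receptors, 212) and 2.59 (TBC1D3, 3). Without them, medians ran from 0.468 (defensins, 37) to 9.87 (histones, 25), with 1.94 for keratins (38). Over all protein-coding genes the median was 3.29 (14497 genes).

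Of the tumour suppressor genes given here, CDKN2A, CDKN2B and MTAP overlapped a cold bin. FHIT (3.77 insertions per TTAA site), RB1 (2.26), BRCA2 (1.29) and NF1 (4.48) did not.

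The 2 libraries left out of the rule gave the first values that the choice did not use. They held 990 and 737 insertions in the cold bins, 0.0442% and 0.0423% of their insertions in eligible bins, and 12 and 14 in the near-empty bins. With the threshold scaled to their depth, 657 (94.9%) and 654 (94.5%) of the 692 bins were again under it, against 1.51% and 1.71% of the eligible bins that are not cold. Bins were also chosen on one helper and read in the other. Of 693 bins chosen on hyPBase libraries, 673 (97.1%) were under the scaled threshold in hyPBase-centrip libraries, and of 715 chosen on hyPBase-centrip libraries 673 (94.1%) were so in hyPBase libraries.

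Helpers were then compared by the share of each library's insertions in cold bins, which the rule does not fix because it sums both. In hyPBase libraries the share was 0.0458% ± 0.00156 (SD, n = 10; lowest 0.0430, highest 0.0482) and in hyPBase-centrip libraries 0.0442% ± 0.00294 (n = 10; 0.0378 to 0.0494). The groups overlapped, and the difference was not past the threshold (two-sided permutation test with 100000 resamples, adjusted p = 0.299 over 4 tests). Without hyPBase-centrip replicate 3 the difference (hyPBase-centrip minus hyPBase) went from -0.00160 to -0.000885 percentage points in all cold bins and from -0.00138 to -0.000858 in low-density bins, and in repeat bins it turned from -0.000179 to 1.08e-05 (permutation tests, adjusted p = 0.587, 0.587 and 0.984). Of the 324 insertions in near-empty bins, 169 lay in the edge bin chr9:28500001-28600000, mostly outside the border, and 34 of those in the longer chromosome 9 run lay outside its borders. For near-empty bins the means were 0.000677% ± 0.000167 and 0.000633% ± 0.000168 (permutation test, adjusted p = 0.745), for low-density bins 0.0243% ± 0.000901 and 0.0230% ± 0.00219 (adjusted p = 0.299) and for repeat bins 0.0208% ± 0.00132 and 0.0206% ± 0.00110 (adjusted p = 0.745). When insertions with a single read were left out, the difference in all cold bins and in low-density bins was past the threshold, with hyPBase-centrip lower (permutation test, adjusted p = 0.0417 and 0.0254). hyPBase-centrip libraries had fewer reads per insertion, and the part of this in the result was not tested.

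**Figure D5:**
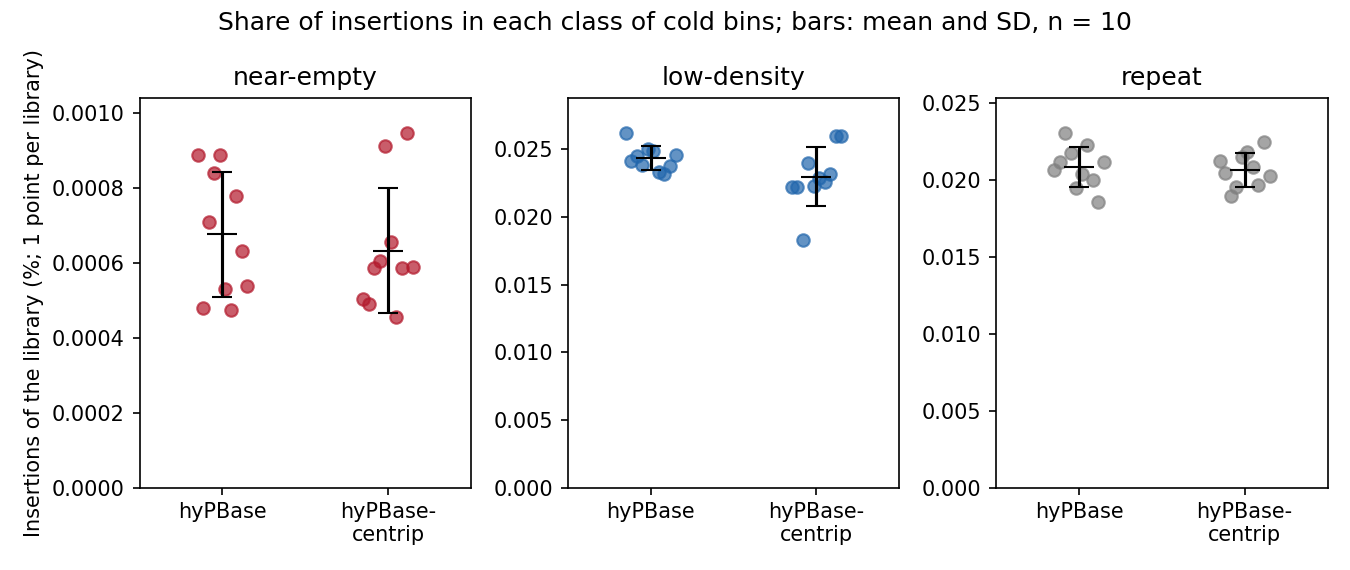
Percent of a library's insertions that fall in near-empty, low-density and repeat bins, with 1 point per library and the mean and SD of each helper (n = 10). The helpers overlap in every class, and hyPBase-centrip replicate 3 is the lowest point of the low-density panel at 0.0183%.

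Bin by bin, 277 of the 692 cold bins had the 20 insertions needed to enter the test, 2 of 103 near-empty, 128 of 160 low-density and 147 of 429 repeat bins. Over all 25384 bins tested, 394 (1.55%) differed between helpers at an adjusted p below 0.05 (edgeR quasi-likelihood test, Benjamini-Hochberg), 161 higher (0.634%) and 233 lower (0.918%) in hyPBase-centrip. Of the 277 cold bins, 0 did by edgeR. At an unadjusted p below 0.05 there were 14 cold bins (5.05%), against 12.9% of all bins tested, and DESeq2 gave no adjusted p for any cold bin because of its filter on low means. The smallest p with a higher level in hyPBase-centrip was at chr15:20900001-21000000, a repeat bin with a median of 1 insertion per hyPBase library (0 to 2) and 4 per hyPBase-centrip library (1 to 5), a log2 fold change of 1.14 ± 0.44 (SE) and an adjusted p of 0.205 by edgeR. The next were chr18:15000001-15100000 (log2 fold change 0.58, edgeR adjusted p = 0.289) and chr9:82200001-82300000 (0.62, 0.303). In the other direction they were chr15:21500001-21600000 (-0.71, edgeR adjusted p = 0.267), chr19:56400001-56500000 (-0.66, 0.298) and chr9:43000001-43100000 (-0.56, 0.326).

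The number of reads behind each insertion, which the rule ignores, was lower in cold bins. In hyPBase libraries an insertion in a cold bin had 3.12 ± 0.570 reads (mean ± SD, n = 10) and one in the other eligible bins 3.83 ± 0.720. The mean log2 ratio was -0.30 ± 0.08 (SD), and it was negative in 10 of 10 libraries (two-sided exact sign-flip test, adjusted p = 0.00195, the smallest this test can give with 10 libraries). In hyPBase-centrip libraries the values were 2.43 ± 0.406 and 2.97 ± 0.534 reads, a log2 ratio of -0.29 ± 0.05, again lower in 10 of 10 (exact sign-flip test, adjusted p = 0.00195). The difference was present in each class, with the same p. It was -0.35 ± 0.10 in hyPBase and -0.32 ± 0.07 in hyPBase-centrip libraries for low-density bins, and -0.23 ± 0.08 and -0.25 ± 0.06 for repeat bins. For near-empty bins it was -0.61 ± 0.32 and -0.67 ± 0.31, a value that rests in large part on the edge bins named above. Differences between classes were not tested. Restricted to TTAA sites unique in both directions, the ratio over all cold bins was -0.33 ± 0.08 and -0.29 ± 0.08 (exact sign-flip test, adjusted p = 0.00223 for both).

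Orientation was close to even. Over eligible bins 49.9% ± 0.0422 of insertions were on the plus strand (SD over 20 libraries), and every library was slightly under 50%. In repeat bins the value was 51.1% ± 2.55, and in those of the chromosome arms 53.3% ± 4.17, below 50% in 4 of 20 libraries. In low-density bins it was 47.3% ± 2.14, and in those of the chromosome arms 45.4% ± 3.03, below 50% in 20 of 20 libraries (38.3% to 49.4%). Libraries share the same few bins, and this was not tested.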

How the data were processed

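Insertions were measured by Calling Cards in K562 cells. The authors deposited 1 table per library, listing every insertion by hg38 position, strand and barcode with its read count. The deposited counts are raw and not normalized. The submitters' processing notes name Trimmomatic, BWA and SAMtools, and versions and read length are not given in the sources used here. Each line was taken as 1 insertion, and depth was 1509672 to 3596762 insertions per library. Intervals and floors (3 counts) cover counting error only. Reads without a unique position may have been lost before deposit, which lowers values in repeats.

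TTAA sites and 40-mers were read from hg38 and genes from GENCODE release 44. The reference copy is in upper case, so the planned percent of soft-masked bases was not computed. Bins with at least 20 insertions were tested with edgeR 4.0.16 (R 4.3.3), by its quasi-likelihood test with TMM and Benjamini-Hochberg adjustment, with DESeq2 1.42.0 as an alternative. Other tests used Python 3.11.15, numpy 2.4.6 and scipy 1.17.1. On simulated counts for 25386 bins, edgeR recovered 97% of 2-fold and 80% of 1.5-fold changes, with 11 false calls. The changed bins were drawn from all bins tested, and every bin had the same assumed dispersion. These rates therefore do not describe the cold bins, which hold few insertions. Named runs are all near-empty runs, the 5 longest and 5 lowest low-density runs and the 5 longest repeat runs, with up to 10 protein-coding genes each; the 3 cold bins with the smallest adjusted p in each direction; and cold bins at listed tumour suppressor loci, some of which are not reported here. Other runs and genes in the text were picked after their values were seen. The members and lists were chosen with earlier results of these data known.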

Additional observations from a re-analysis of the deposited data

Results flagged for a closer look

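The share of insertions in low-density bins in hyPBase-centrip replicate 3 was 0.0183%, far from the next lowest library of its group at 0.0222% and from the group median of 0.0227%. Its gap to the nearest library was 0.506 of the group's range, above Dixon's 95% critical value for 10 libraries. It was the 1 flagged of 16 groups of libraries tested, and chance flags about 1 in 20.

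The 2 libraries without a group, which entered no comparison, held insertions in the cold bins as well, 990 in the first and 737 in the second.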

How the results depend on the processing

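The count of 692 cold bins moved most with the definition: it was 2525 under 0.4 insertions per TTAA site, 414 with at least 500 TTAA sites, and 239 when TTAA sites with a 40-mer unique in both directions were the only ones counted and at least 100 of these were required in place of 300 TTAA sites, so both choices changed together. Of those 239, 212 were also cold by the rule. Among cold bins with at least 100 such sites, 101 of 102 near-empty, 108 of 151 low-density and 3 of 9 repeat bins stayed under 0.2. Leaving out hyPBase-centrip replicate 3 or hyPBase replicate 9, an alternative chosen after seeing the data, gave 693 each. With at least 2 reads per insertion, the helper difference (hyPBase-centrip minus hyPBase, in percent of insertions) was -0.00263 for all cold bins and -0.00226 for low-density bins, past the threshold (permutation test, adjusted p = 0.0417 and 0.0254), and the cause was not tested. Over its alternatives the adjusted p of all cold bins ran from 0.0417 to 0.920. Without hyPBase-centrip replicate 3 the difference in repeat bins turned from -0.000179 to 1.08e-05 (permutation test, adjusted p = 0.984), that in all cold bins from -0.00160 to -0.000885 and that in low-density bins from -0.00138 to -0.000858 (adjusted p = 0.587 for both). Without a filter on low counts edgeR called 1 cold bin, a repeat bin lower in hyPBase-centrip, and with the log number of insertions as a term it called 690 bins in all and 0 cold bins, against 394 and 0. With the replicate number as a block edgeR called 333 bins in all and 0 cold bins (9 at an unadjusted p below 0.05), and exact sign-flip tests of the shares gave adjusted p from 0.469 to 0.803. The numbers did not pair the libraries, since same-number correlations ran from -0.0347 to 0.0263 in 10 pairs and no library correlated best with its own number. Depth limited the test by bin to the 277 of 692 cold bins with at least 20 insertions, and how large a change could be called in these was not measured.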

Other observations

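Stretches without any insertion were also found outside the cold bins. Of 194 stretches with at least 80 unique TTAA sites and no insertion in the 20 libraries, 157 touched a cold bin and 37 did not, 25 of these away from centromeres. Those near centromeres include chr17:22714105-26641687 and chr20:26290413-28555127, where 132 of 2763 and 138 of 385 TTAA sites are unique, and the stretches below lie away from centromeres. The list was made after the data were seen, and no test was run. On chromosome 10, chr10:124952929-125008785 (334 TTAA sites) lies where ZRANB1 and CTBP2, a transcriptional corepressor gene, are annotated. A neighbouring stretch at CTBP2, chr10:125009200-125042239 (122 sites), follows after a short break. The 100 sites before the pair averaged 3.75 insertions and the 100 sites after it 11.1. On chromosome 5, chr5:180947930-180980447 (215 sites) lies at the butyrophilin-like gene BTNL8. It is followed after a short break by chr5:180980575-181003205 (152 sites) at BTNL3. The outer flanks of these neighbours averaged 2.29 and 2.82 insertions per site over 100 sites. On chromosome 20, chr20:1572761-1606536 (166 sites) lies at SIRPB1, a signal-regulatory protein gene, with 1.21 and 1.19 insertions per site in the 100 sites on either side. On chromosome 4, chr4:34778438-34827494 held 414 sites without an insertion, with flanks of 0.52 and 0.40.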
